A study of Mus musculus with 6 samples.

Results

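The mitochondrial carriers of the Slc25 family were taken from RNA sequencing of mouse small intestine, as all genes of the deposited table whose symbol is Slc25a followed by a number. There were 47 such genes among 54012 listed. Each of the 47 also carried the mitochondrial carrier domain in the table's own Pfam column, a feature the choice did not use. That domain was listed for 5 further genes, Ucp1, Ucp2, Ucp3, Mtch1 and Mtch2. The samples were 3 libraries labelled wild type (WT) and 3 labelled TLR4ΔIEC, from mice aged 8 to 12 weeks, and the series title asks what loss of TLR4, a receptor that senses bacterial lipopolysaccharide, does to expression in the small intestine. The labels call the tissue intestine and give no strain, sex, Cre driver or stretch of gut. Nothing in them says whether controls carried a floxed allele.

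Mitochondrial carriers are proteins of the inner mitochondrial membrane, built from repeats of a common module, that exchange metabolites between the cytosol and the matrix. They move ADP and ATP, phosphate, citrate, malate, aspartate and glutamate, carnitine esters, cofactors and iron, and so link the respiratory chain to the rest of the cell. A few members lie elsewhere, such as Slc25a17 in peroxisomes and Slc25a46 on the outer membrane. In the small intestine, enterocytes use them to oxidise glutamine, to burn fatty acids, and to make citrulline.

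Levels are given in TPM, a unit that divides by gene length and brings each library to the same total, so that levels of different genes may be set side by side. Fold changes are the log2 of TPM + 1 in the libraries labelled TLR4ΔIEC minus the same in WT, tested with limma across 13458 genes whose mean was at least 1 TPM. Tlr4 itself stood at 0.57 to 0.70 TPM in WT and at 1.22 to 4.81 TPM in the libraries labelled TLR4ΔIEC. The RNA of the whole samples thus showed no loss. These levels are low, and Tlr4 in epithelial cells alone was not measured. Every direction below therefore compares labels. Among the libraries, TLR4ΔIEC replicate 2 stood apart, with 12221 genes reaching 1 TPM where the other 5 had 13197 to 13634. Defining epithelial genes were present in all 6 libraries, with Epcam at 1200 to 2126 TPM. Smooth muscle and immune markers were present as well, so the samples were mixtures of cell types, in which fewer cells of a type and less RNA per cell cannot be told apart.

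Of the 47 carriers, none passed an adjusted p of 0.05 in limma, against 16 of all genes tested (0.119%). Slc25a48, a carrier of choline, came nearest, at a level about 5.45 times as high in the libraries labelled TLR4ΔIEC as in WT. The carnitine carrier Slc25a20, the calcium-regulated ATP-Mg/phosphate carrier Slc25a24 and the branched-chain amino acid carrier Slc25a44 followed. At an unadjusted p under 0.05 there were 10 of 38 tested carriers higher (26.3%) and 0 lower, where 18.4% of all genes were higher and 2.77% lower. Without WT replicate 2 the count was 4, beside 10.7% of all genes, and without WT replicate 3 it was 5, beside 9.85%. Under other scalings it was 3 with median-of-ratios (6.69% of all genes), 2 with quantile normalization (7.49%), 5 without the 20 highest genes (9.43%), 2 without alpha-defensin, mitochondrially encoded and 18S-like genes (4.5%) and 2 with enterocyte markers (1.82%), and 0 were lower under any. The libraries of the groups did not overlap for 10 carriers, all higher in TLR4ΔIEC, again 26.3%, beside 24.1% of all genes higher and 3.53% lower. As a family the carriers were thus close to the background. Values were positive for 29 of the 38 (76.3%), against 68.1% of all genes. The median log2 fold change was 0.21 in the carriers and 0.16 in all genes tested.

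Sequences upstream of the start are shown for the 2 carriers with the largest differences, read from RefSeq promoters of build GRCm38.p6, which held 36 of the 47 carriers. Both lie on the plus strand, and the runs end just before the first annotated base of the gene in GENCODE M21. Capitals mark the letters GGGCGG or their reverse complement CCGCCC, the GC box, and CCGGAAG, an ETS-type motif. The first is 250 bases at chr13:56438105-56438354 and the second 202 bases at chr9:108661886-108662087.
Slc25a48: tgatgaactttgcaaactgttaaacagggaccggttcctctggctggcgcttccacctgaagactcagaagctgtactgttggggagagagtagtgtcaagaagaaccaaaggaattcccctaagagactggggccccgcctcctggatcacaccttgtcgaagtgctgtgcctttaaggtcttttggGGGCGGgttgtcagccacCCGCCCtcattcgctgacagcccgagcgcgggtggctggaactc
Slc25a20: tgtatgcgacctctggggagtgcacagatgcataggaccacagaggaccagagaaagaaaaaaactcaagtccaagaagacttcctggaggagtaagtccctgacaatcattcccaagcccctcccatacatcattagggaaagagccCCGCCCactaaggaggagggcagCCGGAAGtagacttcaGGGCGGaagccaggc

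Both windows hold GC boxes, and the Slc25a20 window holds the ETS-type motif as well. Over 46 promoter windows of 250 bases for 36 carriers, GGGCGG on either strand was found in 69.6%, against 32.7% of all 32851 windows in the reference, which include noncoding genes and pseudogenes. Some carriers have several windows, and windows were not cut at the annotated gene start. Shares among expressed protein-coding genes alone were not taken. CACGTG, the E-box, which is its own reverse complement, was in 17.4% against 6.02%, and CCGGAAG on either strand in 13.0% against 6.91%. The other motifs searched, on both strands, have no match in the printed runs. AGGTCA, a core site of many nuclear receptors, was in 8.70% of carrier windows against 14.0% of all. AGATAA, which fits the site of factors named GATA, was in 4.35% against 9.99%. TTTATG, a CDX-type motif, was in 8.70% against 10.8%. CAAAGTCCA, an HNF4-type element, was in 0 carrier windows and 0.384% of all. None of the marked motifs overlap. A match describes letters only.

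The family spanned a wide range of levels. A mean of at least 100 TPM was reached by 6 carriers, 15 lay between 10 and 100 TPM, 17 between 1 and 10 TPM, and 9 below 1 TPM, which were not tested. Slc25a5, the adenine nucleotide translocase of most tissues, alone made up 47.1 to 52.7% of the family's TPM in WT and 39.4 to 52.0% in the libraries labelled TLR4ΔIEC. Together the 47 genes took 0.283 to 0.325% of all TPM in WT and 0.325 to 0.411% in TLR4ΔIEC, with summed means of 2972 ± 240 and 3610 ± 444 TPM (SD, n = 3 each). The two-sided p of an exact permutation test was 0.1, the least that 3 against 3 can give. The highest WT sum, 3249 TPM, lay just below the lowest TLR4ΔIEC sum, 3254 TPM. Under the other scalings the same test gave 0.4 to 0.8, except 0.1 with enterocyte markers, where the family's sum was lower. That sum was higher by 0.28 on the log2 scale as deposited, by 0.18 without TLR4ΔIEC replicate 2, and lower when TPM were rescaled without alpha-defensin, mitochondrially encoded and 18S-like genes (−0.04) or when TPM were set to enterocyte markers (−0.18).

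**Figure D1:**
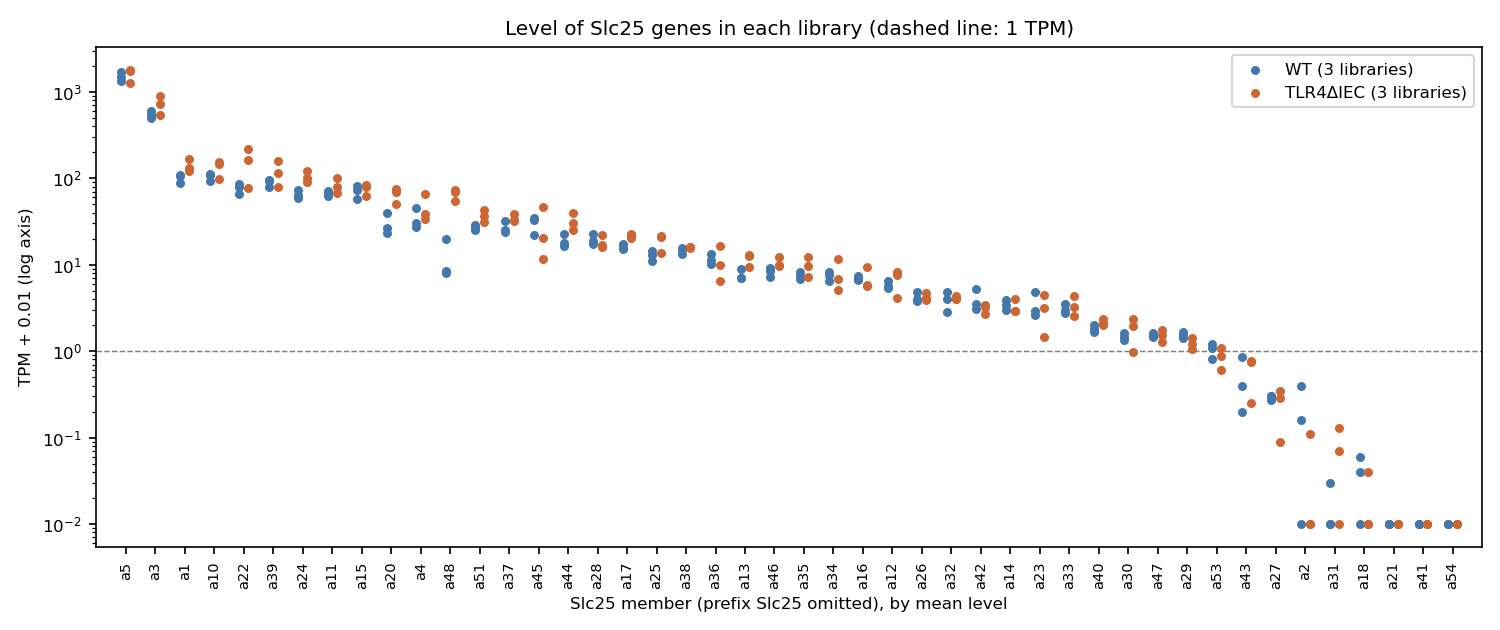
TPM + 0.01 on a log axis for the Slc25 genes reported here, ordered by mean, with a point per library (blue WT, orange TLR4ΔIEC). Slc25a5 and Slc25a3 lie above 500 TPM in every library, 9 genes have a mean under the dashed line at 1 TPM, and the blue and orange points of Slc25a48 stand apart.

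Some carriers lie close to each other in the genome, and most of these pairs differed in level. Slc25a43 and Slc25a5 lie on chromosome X on the same strand, 18448 bases apart, with means of 0.525 and 1560 TPM. Slc25a54 and Slc25a24 lie on chromosome 3, 6461 bases apart with 1 gene between them, with means of 0 and 84.6 TPM, and Slc25a41 and Slc25a23 on chromosome 17, 2056 bases apart, with 0 and 3.25 TPM. In each of these pairs the first was low or listed at 0. By contrast Slc25a29 and Slc25a47 on chromosome 12, which point away from each other across 162 bases, were alike, at means of 1.38 and 1.51 TPM.

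The largest differences of single carriers, those of Slc25a48 and Slc25a20, lay among the carnitine, choline and other amino acid carriers. Slc25a48 (ENSMUSG00000021509, chromosome 13, 56438355 to 56474239, plus strand, GRCm38) brings choline into the matrix, and the table's own annotation lists it for acylcarnitine transport. The WT libraries held 19.6, 8.10 and 8.54 TPM of it, those labelled TLR4ΔIEC 54.3, 72.9 and 70.1. Every TLR4ΔIEC library lay above every WT library, and WT replicate 1 was the highest of WT. Group means came to 12.1 ± 6.49 and 65.8 ± 10.0 TPM (SD, n = 3 each). That is a log2 fold change of 2.45 with an SE of 0.32 (limma adjusted p = 0.0689), rank 24 by p among 13458 genes. It thus missed the threshold as reported. It passed with array weights (adjusted p = 0.0406), where 1.01% of all genes did, without TLR4ΔIEC replicate 1 (adjusted p = 0.0367), where 2.74% did, and without WT replicate 1 (adjusted p = 0.0142), where 0.238% did. Across 19 alternatives the log2 fold change spanned 2.01 to 2.83, with adjusted p-values between 0.0142 and 0.274. The difference was 2.37 without TLR4ΔIEC replicate 2 and 2.83 without WT replicate 1.

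**Figure D2:**
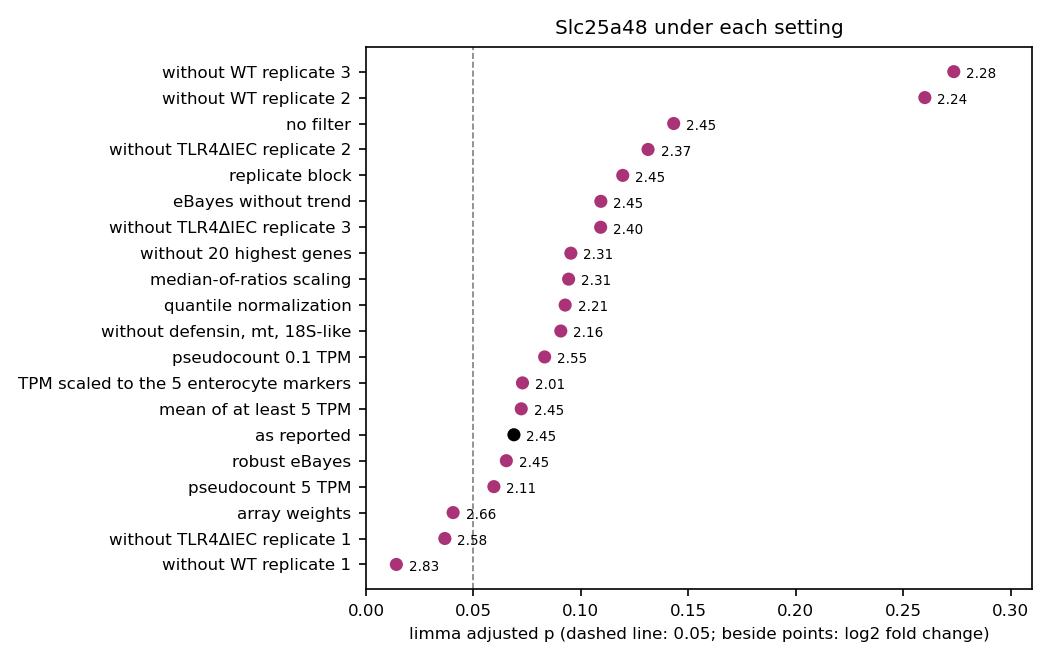
The limma adjusted p of Slc25a48 under each setting (black as reported, purple the alternatives), with the log2 fold change printed beside each point and a dashed line at 0.05. The fold change stays between 2.01 and 2.83, while the adjusted p falls below the line in 3 settings and reaches 0.274 without WT replicate 3.

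As a share of the family's TPM, a measure that no scaling factor per library alters, Slc25a48 made up 0.691, 0.249 and 0.301% in WT and 1.57, 1.77 and 2.16% in the libraries labelled TLR4ΔIEC (two-sided p = 0.1, exact permutation test). That p is no separate support, as Slc25a48 was singled out by its own difference. Its relatives did not move with it. Slc25a45 read 33.3, 34.9 and 22.3 TPM in WT against 11.8, 46.6 and 20.3 in TLR4ΔIEC, so that its libraries overlapped, and Slc25a47 stayed between 1.27 and 1.73 TPM in all 6. Of the summed TPM of Slc25a45, Slc25a47 and Slc25a48, the latter was 18.2 to 35.9% in WT and 60.4 to 80.1% in TLR4ΔIEC, which did not overlap. No annotated gene overlaps Slc25a48 on either strand.

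Markers of gut position, enterocytes and Paneth cells differed between the groups beside Slc25a48. The 4 ileal markers (Fabp6, Slc10a2, Slc51a and Slc51b) summed to 3263 to 8170 TPM in WT against 10954 to 36675 in the libraries labelled TLR4ΔIEC, and each of the 4 was higher without overlap. The 4 proximal markers (Gata4, Lct, Fabp1 and Cyp2b10) summed to 166 to 916 TPM in WT against 9.20 to 77.5 in TLR4ΔIEC, each lower without overlap. The 5 enterocyte markers (Epcam, Vil1, Krt20, Alpi and Cdh1) summed to 3583 to 3969 TPM in WT against 4773 to 6130 in TLR4ΔIEC, and 3 of the 5 did not overlap. Per 1000 TPM of those markers, Slc25a48 was 5.46, 2.04 and 2.19 in WT and 11.1, 11.9 and 14.7 in TLR4ΔIEC, still without overlap. Paneth cell products moved as well. Alpha-defensins took 25.3 to 28.7% of TPM in WT against 18.4, 5.21 and 6.61% in TLR4ΔIEC, where replicate 1 lay nearest to WT. Of the 4 Paneth markers Lyz1, Defa24 and Itln1 were lower without overlap while Mmp7 overlapped. Of 4 genes listed for colon, Car4 and Saa1 were higher without overlap, Aqp8 was listed at 0 throughout and Car1 did not exceed 0.71 TPM. The part of gut position or of Paneth cells in the Slc25a48 difference was not tested.

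Slc25a20 (ENSMUSG00000032602, chromosome 9, 108662088 to 108684641, plus strand) exchanges acylcarnitines for free carnitine, the step by which long-chain fatty acids reach matrix oxidation. Its levels were 39.7, 26.3 and 23.0 TPM in WT against 50.5, 68.4 and 75.0 in TLR4ΔIEC, with no overlap. The log2 fold change was 1.12 (SE 0.24, adjusted p = 0.0982). Its alternatives spanned 0.67 to 1.34, with an adjusted p of 0.0527 to 0.435. Per 1000 TPM of enterocyte markers it was 5.89 to 11.1 in WT and 10.3 to 15.7 in TLR4ΔIEC, which overlap.

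Slc25a44 (ENSMUSG00000050144, chromosome 3, 88410498 to 88425139, minus strand), which carries branched-chain amino acids into the matrix, was at 22.5, 18.0 and 16.3 TPM in WT against 30.1, 40.1 and 24.9 in TLR4ΔIEC. The groups did not overlap, and the log2 fold change was 0.70 (SE 0.21, adjusted p = 0.141). Its alternatives spanned 0.26 to 0.86. The groups of Slc25a44 overlapped under every other scaling except the one without the 20 highest genes. Slc25a15, the ornithine carrier of citrulline and urea synthesis and the most abundant of this group, was at 57.1, 81.7 and 73.9 TPM in WT against 83.6, 78.5 and 62.0 in TLR4ΔIEC, which overlapped broadly. Its log2 fold change was 0.08 as deposited and negative under each other scaling, from −0.07 to −0.37. Slc25a38, the glycine carrier used in haem synthesis, held a narrow range of 13.3 to 16.2 TPM, and the basic amino acid carrier Slc25a29 lay between 1.06 and 1.65 TPM. Slc25a2, an ornithine carrier of other tissues, was listed at 0 in 3 libraries and reached 0.38 TPM. As a group these 9 genes summed to 160 to 190 TPM in WT against 249 to 325 in TLR4ΔIEC (log2 ratio of means 0.65, exact two-sided permutation p = 0.1). Slc25a48, Slc25a20 and Slc25a44, picked out after their values were seen, carried that difference, with summed means of 60.6 and 162 TPM, and the other 6 summed to 119 ± 14.8 TPM in WT and 120 ± 21.8 TPM in TLR4ΔIEC (SD, n = 3 each). Of the 8 tested members 5 had positive values, and their median log2 fold change was 0.10, beside 0.16 for all genes.

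**Figure D3:**
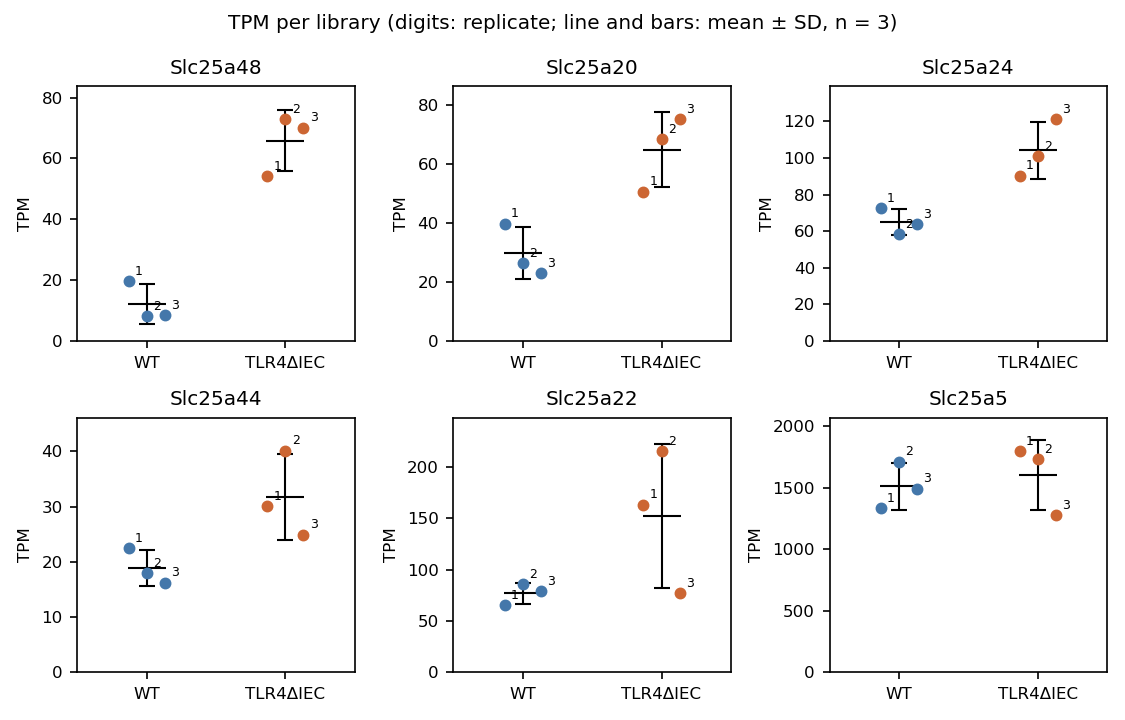
TPM of 6 carriers in each library (points, with the replicate number), with the mean and SD of each group of 3. Slc25a48, Slc25a20, Slc25a24 and Slc25a44 show no overlap between groups, Slc25a22 is high in TLR4ΔIEC replicates 1 and 2 alone, and Slc25a5 overlaps.

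Among adenine nucleotide and coenzyme A carriers, the most abundant member showed no detectable difference. Slc25a5 (ENSMUSG00000016319, chromosome X, 36795651 to 36798807, plus strand), which exchanges cytosolic ADP for matrix ATP, was at 1335, 1714 and 1494 TPM in WT against 1802, 1735 and 1281 in TLR4ΔIEC. TLR4ΔIEC held both the highest and the lowest of its 6 values. The log2 fold change was 0.08 (SE 0.21, adjusted p = 0.873), and turned negative under each other scaling (−0.07 to −0.38). A listed pseudogene, Slc25a5-ps, read 0.24 to 0.62 TPM, and reads of near-identical copies could be split between them.

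Slc25a4, the translocase of heart and muscle, was 1.57 to 3.26% of Slc25a4 plus Slc25a5 in WT and 1.93 to 4.86% in TLR4ΔIEC. It was highest in WT replicate 1 (44.9 TPM) and TLR4ΔIEC replicate 3 (65.5 TPM), against 27.4 to 38.1 TPM in the other libraries. The same libraries had the highest sums of 4 smooth muscle markers (Myh11, Acta2, Des and Actg2), 500 and 459 TPM, against 132 to 233 TPM in the others. The part of muscle in the level of Slc25a4 was not tested.

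Slc25a24 (ENSMUSG00000040322, chromosome 3, 109123149 to 109168457, plus strand), which exchanges ATP-Mg for phosphate and so sets the adenine nucleotide pool of the matrix, was at 72.6, 58.4 and 64.0 TPM in WT against 90.4, 101 and 121 in TLR4ΔIEC. Its groups did not overlap, and the log2 fold change was 0.67 (SE 0.16, adjusted p = 0.109), from 0.21 to 0.80 over the alternatives. Its relative Slc25a25 was at 11.1, 14.5 and 13.0 TPM in WT against 21.2, 21.6 and 13.8 in TLR4ΔIEC, and overlapped because of TLR4ΔIEC replicate 3 (log2 fold change 0.50, adjusted p = 0.230). Slc25a23, the third of these calcium-binding carriers, lay between 1.45 and 4.87 TPM with no order between groups. Slc25a24 made up 77.1 to 82.0% of the 3 in WT and 78.8 to 86.9% in TLR4ΔIEC.

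Slc25a17, the peroxisomal carrier of coenzyme A and other cofactors, was at 17.4, 15.6 and 15.0 TPM in WT against 22.5, 22.2 and 20.3 in TLR4ΔIEC. These groups did not overlap (log2 fold change 0.42, SE 0.13, adjusted p = 0.152), although under the enterocyte scaling the sign turned (−0.02). Slc25a42, a mitochondrial carrier of coenzyme A, was at 5.25, 3.50 and 3.08 TPM in WT against 3.26, 2.71 and 3.38 in TLR4ΔIEC. Slc25a31, a translocase of the testis, did not exceed 0.12 TPM, and Slc25a41 and Slc25a54 were listed at 0 in each library. The 10 genes of this group summed to 1649 ± 174 TPM in WT and 1803 ± 256 TPM in TLR4ΔIEC (exact two-sided permutation p = 0.4), and the sign of that difference turned under each other scaling.

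The phosphate carrier Slc25a3 (ENSMUSG00000061904, chromosome 10, 91116574 to 91124059, minus strand), which brings in the phosphate used to make ATP, was at 543, 604 and 502 TPM in WT against 535, 894 and 722 in TLR4ΔIEC. Only TLR4ΔIEC replicates 2 and 3 exceeded WT (log2 fold change 0.35, SE 0.22, adjusted p = 0.401). The value was 0.18 without TLR4ΔIEC replicate 2 and 0.55 without TLR4ΔIEC replicate 1. Under the enterocyte scaling the sign turned (−0.10).

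Of the di- and tricarboxylate carriers, Slc25a1, which exports citrate for cytosolic acetyl-CoA and lipid synthesis, was at 110, 106 and 87.9 TPM in WT against 122, 169 and 132 in TLR4ΔIEC. These did not overlap (log2 fold change 0.47, SE 0.17, adjusted p = 0.193). The dicarboxylate carrier Slc25a10 ranged from 92.5 to 112 TPM in WT and from 98.1 to 156 TPM in TLR4ΔIEC, and the oxoglutarate carrier Slc25a11 of the malate-aspartate shuttle from 62.1 to 70.7 and from 66.9 to 101 TPM. Both overlapped between the groups. The annotated span of Slc25a11, introns included, overlaps that of Rnf167 on the opposite strand, at a mean of 38.6 TPM. Spans also overlap for Slc25a23 with Crb3 (94.9 TPM), Slc25a35 with Rangrf (27.4 TPM), Slc25a26 with Lrig1 (13.0 TPM), Slc25a25 with Naif1 (1.92 TPM) and Slc25a18 with Atp6v1e1 (91.2 TPM). Reads from any shared exonic stretch could not be told apart if strand was not used. Whether exons overlap was not examined. The oxodicarboxylate carrier Slc25a21 was listed at 0 throughout.

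Carriers of aspartate and glutamate were uneven. The 4 genes summed to means of 90.6 ± 9.77 TPM in WT and 171 ± 67.8 TPM in TLR4ΔIEC (SD, n = 3 each), with overlap. The log2 ratio of these means, 0.91, was the largest of the groups of carriers (exact two-sided permutation p = 0.2). Slc25a22 (ENSMUSG00000019082, chromosome 7, 141429744 to 141437892, minus strand), which brings glutamate into the matrix with a proton, was at 65.7, 86.0 and 79.4 TPM in WT against 163, 216 and 77.5 in TLR4ΔIEC. TLR4ΔIEC replicates 1 and 2 were well above WT and replicate 3 lay within it. The log2 fold change was 0.86 (SE 0.36, adjusted p = 0.230), and 1.28 without TLR4ΔIEC replicate 3, with an adjusted p of 0.107. It was 0.55 without TLR4ΔIEC replicate 2, 0.50 with array weights and 0.41 under the enterocyte scaling.

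Slc25a13, also called citrin, trades matrix aspartate for cytosolic glutamate in the malate-aspartate shuttle. It was at 8.88, 7.04 and 7.09 TPM in WT against 9.51, 12.9 and 12.8 in TLR4ΔIEC, without overlap (log2 fold change 0.55, SE 0.18, adjusted p = 0.158). Its paralog Slc25a12, also called aralar, was at 5.39 to 6.55 TPM in WT against 4.07 to 8.15 in TLR4ΔIEC. Slc25a13 made up 51.8 to 61.2% of the pair in WT and 55.9 to 76.0% in TLR4ΔIEC, which overlap. Slc25a18, the glutamate carrier of brain, did not exceed 0.05 TPM.

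Carriers of cofactors, nucleotides and glutathione were led by Slc25a39, which brings glutathione into the matrix. It was at 94.1, 94.3 and 79.5 TPM in WT against 79.9, 157 and 115 in TLR4ΔIEC, with overlap (log2 fold change 0.34, SE 0.25, adjusted p = 0.470). That value was 0.11 without TLR4ΔIEC replicate 2 and 0.59 without TLR4ΔIEC replicate 1. Slc25a51, the NAD carrier, was at 25.4, 27.6 and 28.5 TPM in WT against 31.6, 42.8 and 36.7 in TLR4ΔIEC, without overlap (log2 fold change 0.42, SE 0.15, adjusted p = 0.181). Slc25a51 per 1000 TPM of enterocyte markers was 6.94 to 7.31 in WT and 6.42 to 7.68 in TLR4ΔIEC, so no difference was seen on that scale. Per 1000 TPM of Epcam alone it was 20.2 to 23.0 in WT and 16.9 to 20.1 in TLR4ΔIEC, narrowly lower without overlap.

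The others of this group given here were low. Slc25a36, a pyrimidine nucleotide carrier, lay between 6.48 and 16.4 TPM, and the related Slc25a33 between 2.54 and 4.32 TPM. Slc25a26 (S-adenosylmethionine) was at 3.80 to 4.77 TPM, Slc25a32 (folate and FAD) at 2.83 to 4.88 TPM and Slc25a16 at 5.64 to 9.36 TPM. None of these 5 separated the groups. Slc25a40, a relative of Slc25a39, did so narrowly at 1.64 to 1.97 TPM in WT against 2.01 to 2.32 in TLR4ΔIEC (log2 fold change 0.17, limma adjusted p = 0.649). Its groups overlapped under each other scaling.

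Of the iron carriers, Slc25a37 (mitoferrin 1) was at 31.9, 23.7 and 24.9 TPM in WT against 31.6, 32.6 and 38.6 in TLR4ΔIEC, and WT replicate 1 lay inside the TLR4ΔIEC range (log2 fold change 0.35, SE 0.16, adjusted p = 0.276). Summed erythroid markers (Hbb-bs, Hbb-bt, Hba-a1 and Alas2) were 104 to 114 TPM in WT and 31.2, 52.2 and 166 TPM in TLR4ΔIEC. The highest Slc25a37 and the highest erythroid sum were both in TLR4ΔIEC replicate 3, while the lowest erythroid sum was in replicate 1. Slc25a28 (mitoferrin 2) lay between 15.8 and 22.6 TPM in all libraries. Slc25a37 made up 51.2 to 63.2% of the pair in WT and 58.9 to 69.4% in TLR4ΔIEC.

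The uncoupling protein-like carriers were low. Slc25a14 was at 3.42, 3.00 and 3.88 TPM in WT against 2.91, 2.94 and 4.03 in TLR4ΔIEC (log2 fold change −0.05, SE 0.19, adjusted p = 0.902), Slc25a30 at 0.98 to 2.32 TPM and Slc25a27 at 0.08 to 0.34 TPM. Among members of unsettled or other role, Slc25a46, which acts in mitochondrial shape, was at 7.24, 8.36 and 9.21 TPM in WT against 9.78, 9.59 and 12.2 in TLR4ΔIEC. That difference was small but without overlap (log2 fold change 0.31, SE 0.16, adjusted p = 0.324). Slc25a34 and Slc25a35 lay between 5.09 and 12.3 TPM, and Slc25a43 and Slc25a53 between 0.19 and 1.19 TPM.

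**Figure D4:**
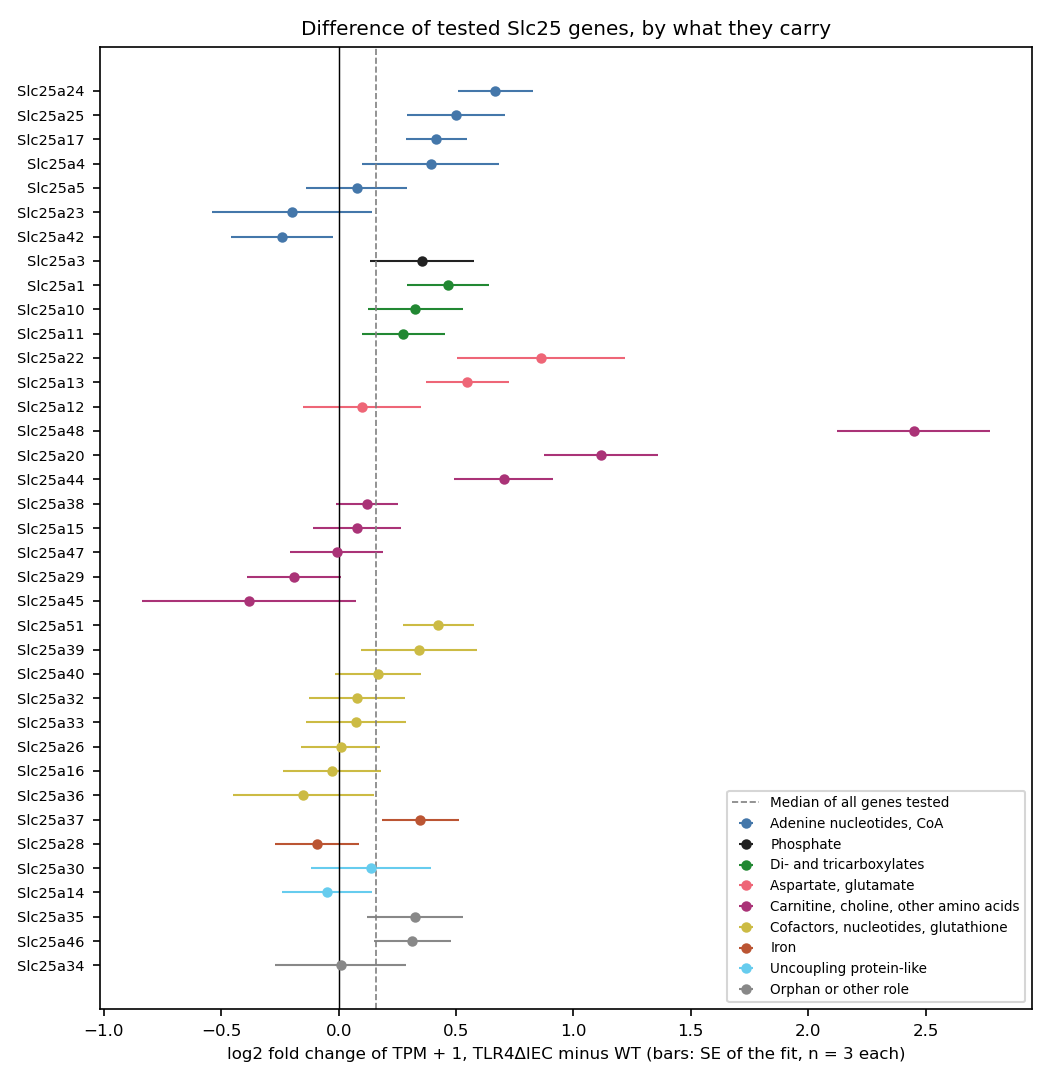
Log2 fold change of TPM + 1, TLR4ΔIEC minus WT, for the tested carriers reported here, coloured by what they carry, with bars for the SE of the fit (n = 3 each) and a dashed line at the median of all genes tested (0.16). Slc25a48 at 2.45 and Slc25a20 at 1.12 lie farthest to the right, and the lowest is Slc25a45 at −0.38.

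How much of the tilt to higher values came with scaling was read by rescaling each library. The median of all genes tested was 0.16 as deposited, 0.03 under median-of-ratios scaling, 0.02 under quantile normalization, 0.01 without the 20 highest genes, −0.12 without alpha-defensin, mitochondrially encoded and 18S-like genes, and −0.23 under the enterocyte scaling. The carriers' median was 0.21, 0.09, 0.05, 0.08, −0.05 and −0.13 in the same order, above that of all genes each time. Carriers whose groups did not overlap numbered 3 higher and 1 lower under median-of-ratios scaling, beside 10.8% and 8.43% of all genes, and 4 and 0 under quantile normalization, beside 11.1% and 8.54%. Without the 20 highest genes they were 7 and 2, beside 13.6% and 6.55%, and 3 and 3 without the defensin, mitochondrial and 18S-like set, beside 6.36% and 12.7%. Under the enterocyte scaling they were 1 and 5, beside 2.29% and 17.7%, and the 1 was Slc25a48. Slc25a48, Slc25a20 and Slc25a24 were higher without overlap as deposited and under the 4 planned scalings, the latter pair not under the enterocyte one. Slc25a42 was lower without overlap under 4 of the 5 other scalings, the exception being quantile normalization.

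**Figure D5:**
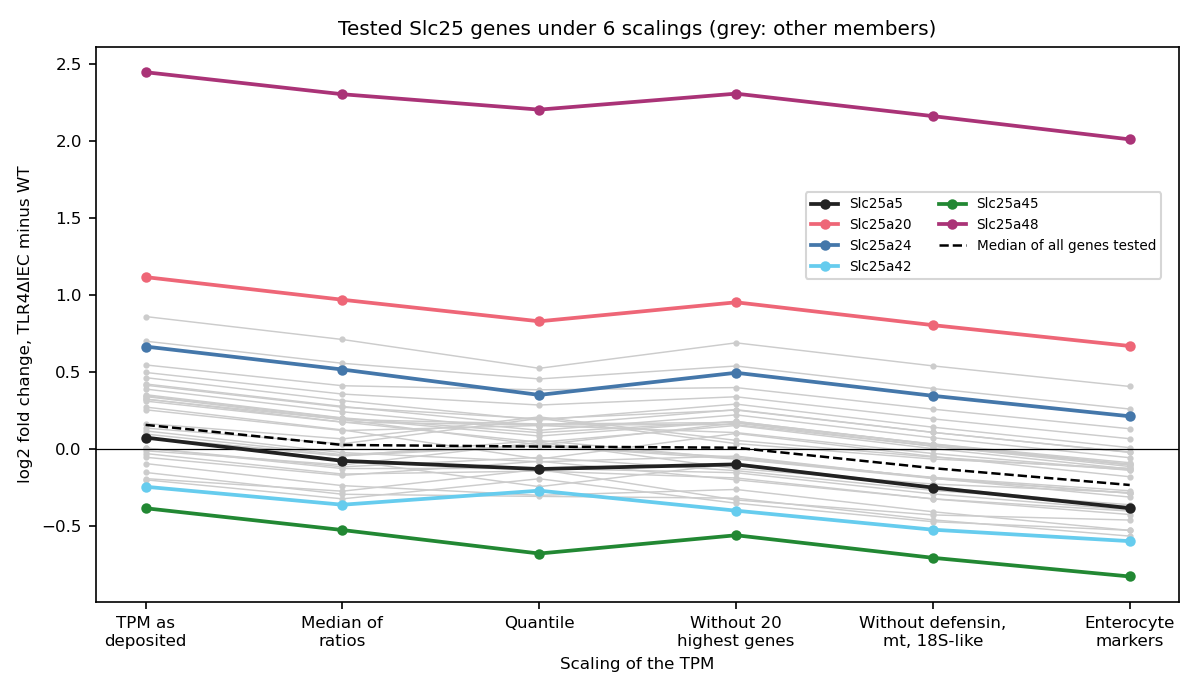
Log2 fold change (TLR4ΔIEC minus WT) of each tested carrier under 6 scalings, with 6 carriers in colour, the others in grey and the median of all genes as a dashed line. Each of the 6 coloured carriers is lower at the right end than at the left, though not at every step, Slc25a48 stays above 2, and Slc25a5 crosses 0.

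Genes that work with the carriers were counted next, from lists written with earlier results of these data known. Their counts are thus no separate support for any carrier. None of the companion genes passed an adjusted p of 0.05. Their counts at an unadjusted p under 0.05 are to be read against 18.4% of all genes higher and 2.77% lower. These counts are of TPM as deposited. They were not taken under the other scalings, where 1.82 to 9.43% of all genes were higher. For Slc25a20, of 9 carnitine and fatty acid oxidation genes all 9 had positive values and 4 were higher at an unadjusted p under 0.05 (median 0.45), where 68.1% of all genes had positive values, 18.4% were higher and the median was 0.16. The long-chain acyl-CoA dehydrogenase Acadl was at 62.7, 51.4 and 44.2 TPM in WT against 159, 132 and 88.3 in TLR4ΔIEC (log2 fold change 1.22, adjusted p = 0.0940). Hadha, of the trifunctional protein, was the most abundant, with a log2 fold change of 0.51 (adjusted p = 0.189).

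For Slc25a48, of 13 genes of choline uptake, phosphorylation and oxidation 9 were tested, and 1 was higher and 0 lower at an unadjusted p under 0.05 (median 0.12). That gene was Chkb, a choline kinase, at 26.4 to 33.6 TPM in WT against 33.9 to 46.0 in TLR4ΔIEC (log2 fold change 0.42, adjusted p = 0.205). The choline transporter Slc44a1 was the most abundant, with a log2 fold change of 0.34 (adjusted p = 0.321). Chdh, the mitochondrial enzyme that oxidises choline, picked out after its values were seen, was at 35.4 to 54.7 TPM with overlap.

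For the aspartate, glutamate and citrate carriers, 1 of 12 shuttle and citrate genes was higher at an unadjusted p under 0.05 (median 0.12). It was the monocarboxylate transporter Slc16a1 (log2 fold change 0.48, adjusted p = 0.152), while malate dehydrogenase Mdh2, the most abundant, had a value of −0.30 (adjusted p = 0.532). Of 12 genes of ornithine, urea and glutamate metabolism 11 were tested, with 1 higher and 3 lower at an unadjusted p under 0.05 (median −0.01). Glud1, glutamate dehydrogenase, was at 137, 231 and 164 TPM in WT against 88.4, 114 and 81.8 in TLR4ΔIEC, lower without overlap (log2 fold change −0.88, adjusted p = 0.115). Oat, ornithine aminotransferase, differed by 0.10 in log2 (adjusted p = 0.844).

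Of 12 haem and iron-sulphur genes 11 were tested, with 3 higher and 1 lower at an unadjusted p under 0.05 (median 0.13), and Abcb10, a partner of mitoferrin 1, differed by 0.45 in log2 (adjusted p = 0.158) and Alas1 by 0.12 (adjusted p = 0.801). Among 13 genes of the import of carriers 10 had positive values, and 2 were higher at an unadjusted p under 0.05 (median 0.10). Timm10b, an intermembrane chaperone subunit, differed by 0.47 in log2 (adjusted p = 0.152) and Timm8b by 0.10 (adjusted p = 0.844). Of 12 relatives and other inner membrane transporters 8 were tested and 2 were higher at an unadjusted p under 0.05 (median 0.32). Ucp2, an uncoupling protein, was at 284 to 374 TPM in WT and 350, 673 and 366 TPM in TLR4ΔIEC (log2 fold change 0.40, adjusted p = 0.457), Mpc2 of the pyruvate carrier gave 0.51 (adjusted p = 0.178), and Ucp1 was listed at 0. As a gauge of mitochondrial content, 16 genes of respiratory chain, porin and biogenesis had a median of 0.14, with 1 higher at an unadjusted p under 0.05, Vdac3, a porin of the outer membrane (log2 fold change 0.46, adjusted p = 0.115). Atp5b of ATP synthase differed by 0.13 in log2 (adjusted p = 0.737). The median of these 16 was close to that of all genes, 0.16.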

How the data were processed

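Total RNA from 6 small intestine samples was sequenced. Per the submitters' processing notes, fastp, HISAT and RSEM were used with build GRCm38.p5, and no version is stated. Whether counting used strand is likewise not stated. The authors deposited TPM per gene and library, with group means that were not used. Read totals cannot be recovered from TPM, so the depth is unknown and intervals for counting error are left out. The table also gives gene lengths, which were not used.

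Titles gave each sample's group and number, and the series' design text speaks of 3 mice in each. The 13458 genes whose mean reached 1 TPM, 38 carriers among them, entered a limma 3.58.1 fit of log2(TPM + 1) under R 4.3.3 (lmFit, eBayes with trend, two-sided), with Benjamini-Hochberg adjustment over all of them at 0.05. The scale understates changes of low genes. Sums over groups were compared by exact permutation tests. Carriers given by library are the 12 of smallest p, the most abundant of each role group, and those without overlap and a log2 fold change of at least 0.5. Slc25a4, Slc25a42 and Slc25a45 were added after their values were seen, and ranges are given for the others. Companion genes named are those of smallest p and highest mean in a list. The members and lists were chosen with earlier results of these data known. Alternatives were pseudocounts of 0.1 and 5, other filters and scalings, eBayes settings, array weights, a replicate block and each library left out. Scaling to 5 enterocyte markers was added after seeing the data. The 18S-like genes are Rn18s, Cmss1 and Gphn. Coordinates are from GENCODE M21, which matched all 47 carriers. Figures were drawn with matplotlib 3.10.9. Of the carriers, 1 enters the counts and sums but is not reported here by name.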

Additional observations from a re-analysis of the deposited data

How the results depend on the processing

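The number of genes past the threshold, 16, became 136 with array weights, 7 with a mean of at least 5 TPM, 0 with no filter (limma gave 3377 with an unadjusted p under 0.05), 10 without alpha-defensin, mitochondrially encoded and 18S-like genes and 39 under the enterocyte scaling. It ran from 0 (without WT replicate 2 or TLR4ΔIEC replicate 2) to 367 (without TLR4ΔIEC replicate 1) with 1 library left out. No carrier passed except Slc25a48, so that the count was 1 with array weights and ran from 0 to 1 with 1 library left out. The cause was not tested for any of these. With the replicate number as a block 1 gene passed and no carrier, and the adjusted p of Slc25a48 was 0.120. Deviations of same-numbered libraries correlated at −0.04, 0.04 and 0.12, beside −0.15 to 0.11 for libraries of different number. With so few libraries these values cannot settle whether the numbers pair the samples.

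The carriers' median was 0.33 with a mean of at least 5 TPM, 0.11 with no filter, 0.14 with a pseudocount of 5 TPM, 0.095, 0.052 and 0.081 under median-of-ratios, quantile and 20-highest-genes scaling, and it turned to −0.048 and −0.13 under the defensin and enterocyte scalings. It ran from 0.18 to 0.24 with 1 library left out. With a mean of at least 5 TPM 28 carriers were tested, and with no filter 44. The median of all genes under the filter and pseudocount settings is not given, so the carriers' medians there cannot be set against the background. Slc25a5 turned to −0.10 with array weights, −0.075, −0.13, −0.098, −0.25 and −0.38 under the 5 scalings (median-of-ratios, quantile, 20 highest genes, defensin, enterocyte), and −0.015 and −0.011 without TLR4ΔIEC replicate 1 and WT replicate 1 (range −0.015 to 0.23). Slc25a15 turned to −0.096, then −0.069, −0.24, −0.092, −0.24 and −0.37, and −0.0065 and −0.067, in the same order (range −0.067 to 0.21). Slc25a14 turned to 0.078 with array weights and to 0.011, 0.0052 and 0.020 without TLR4ΔIEC replicate 1, TLR4ΔIEC replicate 2 and WT replicate 3 (range −0.17 to 0.020). Under the enterocyte scaling the sign also turned for Slc25a3 (−0.10), Slc25a17 (−0.018), Slc25a37 (−0.096), Slc25a39 (−0.11), Slc25a46 (−0.098) and Slc25a51 (−0.020).

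Log2 ratios of summed TPM turned for adenine nucleotide carriers under the 5 scalings (−0.0064, −0.070, −0.044, −0.19 and −0.33), for uncoupling protein-like carriers under median-of-ratios, 20-highest-genes, defensin and enterocyte scaling (−0.14, −0.14, −0.29 and −0.39) and for iron carriers under quantile, defensin and enterocyte scaling (−0.069, −0.14 and −0.26). They also turned under defensin and enterocyte scaling for cofactor carriers (−0.0035 and −0.14), orphan carriers (−0.065 and −0.19) and the whole family (−0.045 and −0.18), and under enterocyte scaling for phosphate (−0.092) and di- and tricarboxylate carriers (−0.086). Without single libraries the uncoupling protein-like sum ran from −0.11 to 0.20. Of the settings of the 17 carriers chosen by rule for values in each library, which leaves out Slc25a42 and Slc25a45, 293 kept sign and side of the threshold, 26 turned sign and 3 passed it. Depth cannot be judged from TPM.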
